A study of Drosophila melanogaster with 8 samples.

Results

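Chemosensory genes of the fruit fly encode the proteins with which it smells, tastes and senses its surroundings. The genes described here were chosen by symbol: lush, and every gene on the arrays whose symbol starts with Obp, ppk, CheA or CheB, or with Or, Gr or Ir and a digit. Of 28 such symbols 1 was left out by the rule, and 27 genes remained out of 6793 named genes. They comprise 19 odorant-binding protein genes (lush included), 3 ionotropic receptor genes, 2 pickpocket genes, and 1 gene each of the odorant receptor, gustatory receptor and CheA families. All 27 matched the Release 6 gene table under the same symbol.

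The study compared total RNA of untreated Drosophila melanogaster larvae of the third instar on 8 spotted cDNA arrays, with 2 RNAs competing on each. In 4 hybridisations, channel 2 held RNA of larvae with the DGCalpha1[3] allele in the Rover background and channel 1 that of Rover larvae without this allele in their label. In the other 4, both RNAs were of the sitter background, again with and without DGCalpha1[3]. DGCalpha1 is an older name of Gycalpha99B, which encodes the alpha subunit of soluble guanylyl cyclase, and Rover and sitter are natural foraging types that differ at a gene for a cGMP-dependent protein kinase. A single mutant allele was examined, and nothing in the labels says whether arrays of a background came from separate extracts, so p-values measure only the spread between arrays, which may be technical. The labels name no tissue, and in RNA of larvae fewer cells of a type and less RNA per cell cannot be told apart. Because each value is a ratio, the files cannot show whether markers of a tissue were present.

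Each deposited value is a log ratio of the 2 channels, read here as log2, which is an assumption. Neither the channel in the numerator nor the dye of each channel is stated, so a ratio is called negative or positive and is not read as lower or higher RNA in mutant larvae. No exchange of dyes between the RNAs is known. A bias of a gene between channels that repeats on all arrays therefore cannot be told apart from a difference between the RNAs. Centring does not remove such a bias. Across all features, the 8 arrays correlated with each other at 0.312 to 0.667. The spots of the mutated gene Gycalpha99B averaged -0.26 ± 0.66 in Rover and -0.27 ± 0.31 in sitter (SD, n = 4 each; limma adjusted p = 0.396 and 0.451), and it is unknown whether they lie in the altered part of the gene. The median over named genes was -0.34 in Rover and -0.15 in sitter, so each count against 0 is followed by the count after centring each array on its median over all features.

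Odorant-binding proteins are small soluble proteins that support cells secrete into the fluid around sensory neurons, where several of them bind odorants or pheromones. Odorant, gustatory and ionotropic receptors are membrane proteins of the sensory neurons, many of which form ion channels, while pickpocket genes encode subunits of sodium channels of the DEG/ENaC family with roles in touch, pain and taste. CheA proteins are secreted proteins described from taste organs. The larva smells and tastes with organs at the tip of its head, and its body wall carries nociceptive neurons.

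Ratios of the chemosensory genes were mostly negative and lay low among those of all genes. Over both backgrounds the median of the 27 genes was -0.87, against -0.23 for all named genes. limma called 21 of the 27 (77.8%) negative, 0 positive and 6 not at all, where 44.9% of all named genes were called negative and 2.36% positive. After centring 18 were negative, 1 was positive and 8 did not pass, against 27.1% of named genes negative and 28.9% positive. On all 8 arrays 18 of the 27 had a negative ratio, compared with 31.3% of named genes. Below the array median on all 8 arrays lay 14 of the 27 (51.9%), against 17.2% of named genes. By mean ratio 18 of the 27 lay within the lowest 20% of named genes, 10 within the lowest 10% and 6 within the lowest 5%. The members thus lay at the low end of a range they shared with many other genes, and the median and counts are descriptions of the list.

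**Figure D1:**
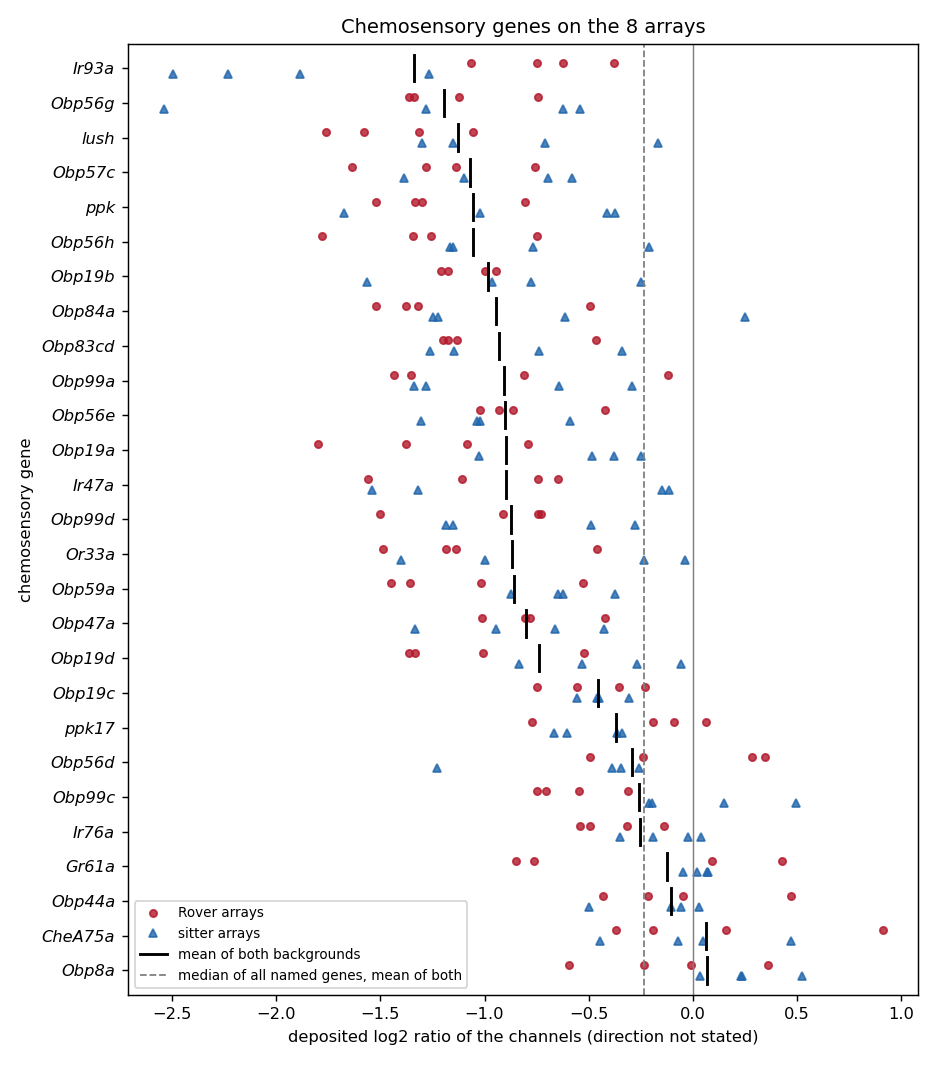
Deposited log2 ratio (x axis) of each chemosensory gene (y axis) on the 4 Rover arrays (circles) and the 4 sitter arrays (triangles), with the mean of both backgrounds as a black bar and the median of all named genes, -0.23, as a dashed line. The bars run from -1.34 for Ir93a to 0.07 for Obp8a. On all 8 arrays 18 of the 27 genes were negative, and 14 lay below the array median over all features.

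Among the binding proteins, lush encodes the protein that binds the male pheromone cis-vaccenyl acetate in adult antennae. Its log2 ratios were -1.05, -1.76, -1.58 and -1.32 on the Rover arrays and -0.71, -1.15, -1.30 and -0.17 on the sitter arrays. All 8 were negative, the ranges overlapped, and sitter 4 stood nearest 0. The mean was -1.43 ± 0.31 in Rover and -0.83 ± 0.51 in sitter (SD, n = 4 each; limma adjusted p = 0.00198 and 0.0218), and over both it was -1.13 (adjusted p = 0.000538). Centred, that mean was -0.83 (limma adjusted p = 0.00205).

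Obp56g had the most negative mean of the binding proteins, at -1.19 over both backgrounds (limma adjusted p = 0.00143). Its arrays read -0.74, -1.12, -1.34 and -1.36 in Rover, against -0.62, -1.28, -2.54 and -0.54 in sitter. The value of sitter 3 rested on 1 of its 4 spots, which stood at -6.54 while the other 3 averaged -1.21. Without that spot the mean over both backgrounds was -1.03, less negative than those of lush, Obp57c and Obp56h, so its rank rested on that spot.

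Obp56h and Obp56e stand in the same gene cluster as Obp56g, the first directly beside it and the other with 3 protein-coding genes between them in the Release 6 order. Obp56h read -0.75, -1.34, -1.78 and -1.26 in Rover, against -0.77, -1.15, -1.17 and -0.21 in sitter, a mean of -1.05 (limma adjusted p = 0.000621). Obp56e averaged -0.90 (limma adjusted p = 0.000521), negative on every array. Obp56d, directly beside Obp56e, had a mean of -0.29 that did not pass (limma adjusted p = 0.115).

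Obp57c was negative on all arrays, with -1.14, -1.64, -1.28 and -0.76 in Rover, against -0.70, -1.39, -1.10 and -0.58 in sitter. Its mean was -1.07 (limma adjusted p = 0.000521). The backgrounds overlapped, and their means of -1.20 ± 0.36 and -0.94 ± 0.37 (SD, n = 4 each) were closer than the spread of either.

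The cluster Obp19a to Obp19d consists of 4 adjacent genes on the X chromosome. Obp19b had the most even Rover values, -1.18, -1.21, -0.998 and -0.94, against -1.56, -0.78, -0.96 and -0.25 in sitter, a mean of -0.98 (limma adjusted p = 0.00061). Obp19a averaged -0.90 and Obp19d -0.74 (limma adjusted p = 0.000722 and 0.00118). Obp19c stood nearer 0 at -0.46 (limma adjusted p = 0.00147), and after centring it did not pass at -0.16 (adjusted p = 0.0938).

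In the Obp99 cluster Obp99a averaged -0.91 and Obp99d -0.87 (limma adjusted p = 0.00216 and 0.00092), while Obp99c between them averaged -0.26 and did not pass (adjusted p = 0.0582). It passed without Rover replicate 4, at -0.30, and without sitter replicate 4, at -0.33 (limma adjusted p = 0.0467 and 0.0192). It also passed with p-values adjusted over named genes only and with replicate number as a block (adjusted p = 0.0472 and 0.0273). In each of the 3 clusters 1 member averaged -0.46 or nearer 0 and the other members between -0.74 and -1.19. For Obp19c and Obp56d, however, 1 pair of spots averaged -0.79 and -0.78, within the range of the others, so their position rested on the remaining spots.

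Obp83cd read -0.47, -1.13, -1.20 and -1.17 in Rover, against -0.34, -1.26, -1.15 and -0.74 in sitter, a mean of -0.93 (limma adjusted p = 0.000661). Replicate 1, the array of print lot A, was nearest 0 in either background. On sitter 4 its spots ran from -2.22 to 0.32, so the order of the sitter arrays rested on the average of differing spots. Obp84a read -0.49, -1.37, -1.52 and -1.32 in Rover, against -0.62, -1.25, -1.22 and 0.25 in sitter, where 1 array was positive and the mean of -0.71 did not pass (limma adjusted p = 0.0747). Over both it averaged -0.94 and was called (limma adjusted p = 0.00236). Obp59a averaged -0.86 and Obp47a -0.80, each called (limma adjusted p = 0.00061 and 0.000706). Obp59a is known for a part in humidity sensing in the adult antenna.

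At the other end, Obp8a averaged 0.07 and Obp44a, whose product is abundant in glia of the larval brain, averaged -0.11, neither called (limma adjusted p = 0.646 and 0.462). Obp8a read 0.36, -0.01, -0.24 and -0.60 in Rover, against 0.52, 0.04, 0.24 and 0.23 in sitter. It lay above the array median on 7 of the 8 arrays, and after centring it was the 1 member called positive, at 0.37 (limma adjusted p = 0.00888). In all, 15 of the 19 binding protein genes were called negative over both backgrounds, 0 positive and 4 not, where 44.9% of named genes were negative and 2.36% positive. Centred, 14 were negative, 1 positive and 4 not called, against 27.1% and 28.9% of named genes.

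Ir93a, a receptor gene needed with Ir25a for sensing cooling in larvae and humidity in adults, had the most negative mean of all members. Its ratios were -0.38, -1.06, -0.62 and -0.75 in Rover, against -1.88, -2.49, -2.23 and -1.27 in sitter. Every array was negative, and the backgrounds did not overlap. Over both it averaged -1.34 (limma adjusted p = 0.000521; -1.03 centred, adjusted p = 0.00184). In Rover it averaged -0.70 ± 0.29, at the 29.6th percentile of named genes, and in sitter -1.97 ± 0.53, at the 0.0294th (SD, n = 4 each).

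The other ionotropic receptor genes lay higher. Ir47a averaged -0.90 (limma adjusted p = 0.00324), its sitter arrays falling into -1.32 and -1.54 at the lower Cy5 gain and -0.12 and -0.15 at the higher. Its Rover arrays did not part as clearly, with -0.74, -1.56 and -1.11 at the lower gain and -0.65 at the higher. Ir76a, a receptor subunit of adult olfactory neurons that respond to amines, read -0.14, -0.32, -0.54 and -0.49 in Rover, against -0.19, 0.04, -0.35 and -0.02 in sitter. Its mean of -0.25 was called (limma adjusted p = 0.026), but it turned to 0.05 after centring (adjusted p = 0.573). Without Rover replicate 3 or 4, or sitter replicate 1 or 3, the mean lay between -0.24 and -0.22 and was not called (limma adjusted p from 0.061 to 0.076). It lay at the 48.5th percentile of named genes.

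The odorant receptor gene Or33a, which is expressed in larval olfactory neurons, read -0.46, -1.14, -1.18 and -1.49 in Rover, against -0.24, -1.40, -0.997 and -0.04 in sitter. The mean was -0.87 (limma adjusted p = 0.00247; -0.57 centred, adjusted p = 0.00975). Gr61a, of the sugar receptor clade, read 0.43, -0.85, -0.76 and 0.09 in Rover, against 0.07, -0.05, 0.07 and 0.02 in sitter. It changed sign between arrays in both backgrounds, and its mean of -0.12 did not pass (limma adjusted p = 0.519).

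The pickpocket gene ppk, a channel gene of the nociceptive class IV neurons of the larval body wall, read -0.81, -1.52, -1.33 and -1.30 in Rover, against -0.38, -1.68, -1.02 and -0.41 in sitter. It averaged -1.06 (limma adjusted p = 0.000759; -0.75 centred, adjusted p = 0.00293). Its relative ppk17 read -0.09, 0.06, -0.19 and -0.77 in Rover, against -0.34, -0.60, -0.67 and -0.36 in sitter, and its mean of -0.37 was called (adjusted p = 0.0137). That call was lost on centring, where the mean was -0.07 (limma adjusted p = 0.524).

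CheA75a read -0.19, 0.91, 0.16 and -0.37 in Rover, against -0.07, 0.47, 0.05 and -0.45 in sitter. The highest value of each background was on replicate 2 and the lowest on replicate 4. Its mean of 0.06 did not pass (limma adjusted p = 0.763).

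By subfamily the median of the mean ratios was -0.90 for the 19 binding protein genes, -0.90 for the 3 ionotropic receptor genes and -0.71 for the 2 pickpocket genes, against -0.23 for all named genes. The single genes of the other families stood at -0.87 (Or33a), -0.12 (Gr61a) and 0.06 (CheA75a). Within the binding proteins members spanned -1.19 to 0.07 and within the ionotropic receptors -1.34 to -0.25. The spread inside a subfamily thus exceeded the distance between the medians of these 3 subfamilies, and with 1 to 3 genes in the others no order of subfamilies can be read from these arrays.

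The ratios also moved with the array. The median of the 27 genes ranged from -1.18 up to -0.79 where the Cy5 gain was 64 (5 arrays). It ranged from -0.49 up to -0.28 where the gain was 67 or 68 (3 arrays). Among these, Rover 1 and sitter 1 were also the only arrays of print lot A, hybridised for 15.75 hours against 17.75 for all others. The 10th percentile of all named genes moved the same way, from -1.34 to -1.11 at a gain of 64 and from -0.75 to -0.50 at a gain of 67 or 68. From 6 to 11 of the 27 fell in the lowest 10% of named genes on each array, and 20 to 23 lay below the median of named genes. The part of the detector gain in the size of the ratios was not tested. With only the 5 arrays of gain 64, limma called 20 of the 27 negative over both backgrounds, and 44.6% of all features.

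**Figure D2:**
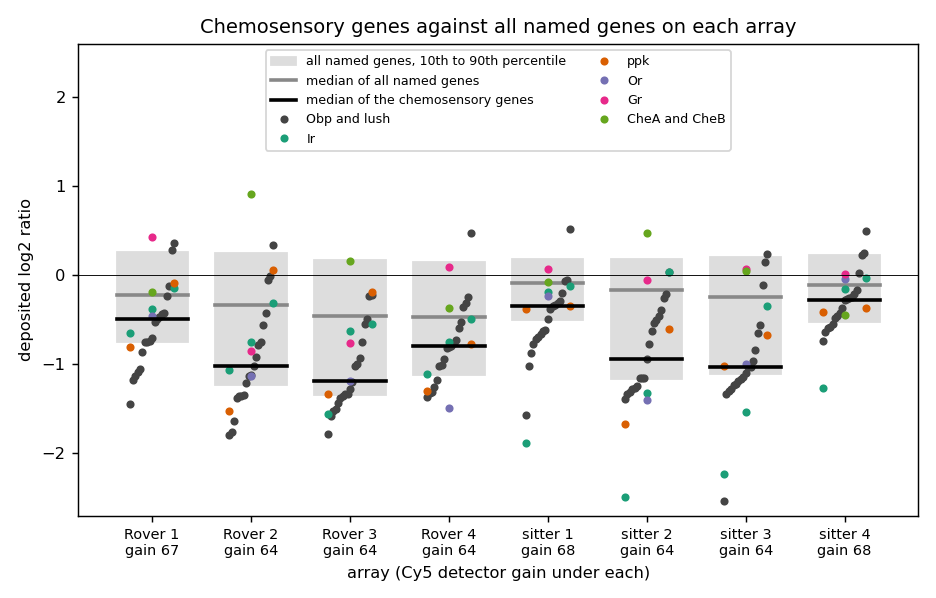
Deposited log2 ratio (y axis) of the 27 chemosensory genes on each array (x axis, with its Cy5 detector gain); dots are genes coloured by subfamily, black lines their median, grey bars the 10th to 90th percentile of all named genes and grey lines the median of those. The black line lies below the grey line on all 8 arrays, with differences of -0.78 to -0.17, and the grey bars reach lower at a gain of 64.

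Taken by background, 21 of the 27 genes passed as negative in Rover and 0 as positive, where 44.7% of named genes were called negative and 1.72% positive. After centring 14 were negative and 0 positive, against 21.2% and 25.2% of named genes. In sitter 15 were negative and 0 positive, where 20.2% of named genes were negative and 0.942% positive. Centred, these were 11 and 0, against 8.61% and 3.14%. The 14 members called in both made up 14 of the 21 in Rover and 14 of the 15 in sitter. Among named genes 1300 (19.1%) were called negative in both, of 3036 in Rover and 1371 in sitter. The member ppk17 was called in sitter but not in Rover. The sitter count rested on 2 arrays: without sitter replicate 2, or without sitter replicate 3, it was 1, and the gene that kept its call in either case was Ir93a. Of all features, 0.088% and 0.0776% were called negative in those fits. At an unadjusted limma p under 0.05, 17 and 15 members remained there. In the main fit 21 members had such a p in sitter, beside 2339 of the 6793 named genes.

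The difference between backgrounds, Rover minus sitter, was called by limma for 0 of the 27 genes, and 4 had an unadjusted p under 0.05. Of all named genes, 0.0147% were called positive and 0.0442% negative, and 777 had an unadjusted p under 0.05. The Rover mean was below the sitter mean for 19 of the 27 (70.4%), compared with 75.3% of named genes. After centring it was so for 14 (51.9%), against 44.3% of named genes. Centred, 0 members were called, against 0.0736% of named genes positive and 0.0147% negative. An unadjusted p under 0.05 was then found for 3 members, against 645 of the 6793 named genes. Members' differences had a median of -0.23, against -0.17 for all named genes, and their standard errors ran from 0.16 to 0.41. The Cy5 gain was 64 on every Rover array except Rover 1, but on sitter 2 and sitter 3 only. The part of this imbalance in the counts and differences between backgrounds was not tested.

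Ir93a had the smallest p of the members, with a difference of 1.27 ± 0.27 (SE; 95% interval 0.65 to 1.89, unadjusted) that did not pass (limma adjusted p = 0.221). Over 19 alternatives the difference ran from 1.09 to 2.01, with adjusted p from 0.0693 to 1. Obp56d came next on the positive side, with 0.28, 0.35, -0.50 and -0.24 in Rover, against -0.34, -0.39, -1.23 and -0.26 in sitter (difference 0.53, limma adjusted p = 0.58). The difference of ppk17 was 0.25 (limma adjusted p = 0.693).

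On the negative side Obp99c read -0.71, -0.75, -0.55 and -0.31 in Rover, against -0.19, -0.21, 0.15 and 0.50 in sitter. No Rover array overlapped the sitter range, which held for 2 of the 27 members, Ir93a being the other, and for 7.8% of named genes. Its difference was -0.64 (95% interval -1.09 to -0.19, unadjusted; limma adjusted p = 0.409). Obp19a read -1.08, -1.80, -1.38 and -0.79 in Rover, against -0.38, -0.25, -1.03 and -0.48 in sitter (difference -0.73, limma adjusted p = 0.452). Obp19d read -0.52, -1.36, -1.33 and -1.01 in Rover, against -0.06, -0.53, -0.84 and -0.27 in sitter (difference -0.63, limma adjusted p = 0.479). None of these intervals shows that the backgrounds were alike.

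**Figure D3:**
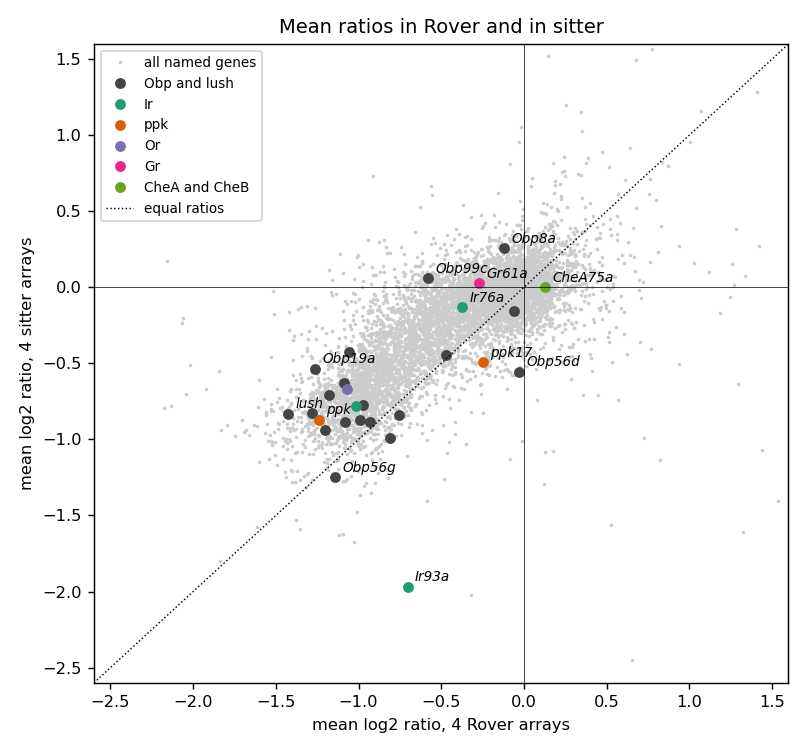
Mean log2 ratio over the 4 Rover arrays (x axis) and the 4 sitter arrays (y axis) of the chemosensory genes (coloured by subfamily) and all named genes (grey, 4 of them outside the axes); the dotted line marks equal ratios. Ir93a lies at -0.70 and -1.97, and most members lie among grey points at the lower left.

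Spots of the same gene did not always give the same ratio. Of the 27 genes 16 were averaged from 2 neighbouring spots, 10 from 4 and 1 from 6, in pairs of neighbours. The spread of spot means within a gene had a median of 0.18 and reached 1.67 in Obp59a, where a pair averaged -1.48 and the other pair -0.23. In Obp19c the pairs averaged -0.79 and -0.13. In Obp56d 2 pairs were at 0.33 and 0.37 in Rover and -0.44 and -0.45 in sitter, while the other pair was at -0.78 in Rover and -0.77 in sitter. The pairs of Obp57c (-1.04 and -1.10), Obp56h (-1.08 and -1.02) and Obp19b (-1.03 and -0.94) lay close together. No label says whether pairs carry the same cDNA, and hybridisation of related genes to a spot was not tested.

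**Figure D4:**
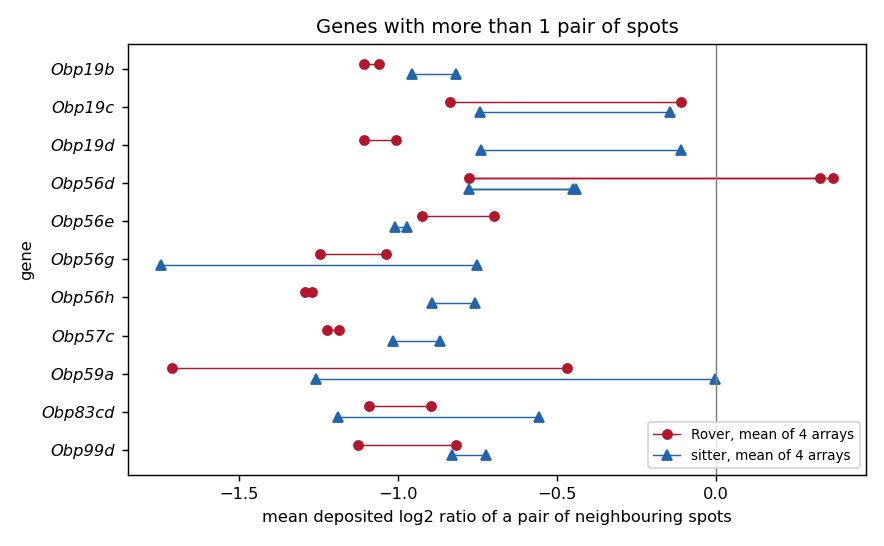
Mean log2 ratio (x axis) of each pair of neighbouring spots for the 11 genes (y axis) with more than 1 pair, over the 4 Rover arrays (circles) and the 4 sitter arrays (triangles), lines joining pairs of a gene. The pairs of Obp59a lie far apart, at -1.71 and -0.47 in Rover, while those of Obp57c lie close together, at -1.22 and -1.18 in Rover.

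Other genes of smell, taste and neurons were counted from lists of which the arrays held a part. Of 13 measured genes for accessory and transduction proteins (26 listed), 6 were called negative over both backgrounds and 0 positive, a share near the 44.9% of all named genes called negative. Centred, 3 were negative and 4 positive, against 27.1% and 28.9% of named genes, so the list did not stand out by its counts. Its median ratio was -0.27; Jhedup, an esterase able to degrade odorants, stood at -1.13, the dopamine receptor gene Dop1R1 at -0.98 and the channel gene trp at -0.56, each called. Of 6 transcription factor genes of sensory neurons (15 listed) 3 were called negative, fru at -0.93, pdm3 at -0.51 and sens at -0.44, and 0 positive, again near the 44.9% of named genes. Centred, 1 was negative and 1 positive.

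The synaptic relatives of the ionotropic receptors also had negative ratios. Of 7 measured ionotropic glutamate receptor genes (13 listed) 6 were called negative and 0 positive, where 44.9% of named genes were negative, with a median of -0.76. Centred, 6 were negative and 1 positive, against 27.1% and 28.9% of named genes. KaiR1D stood at -0.71, GluRIA at -0.76 and GluRIIB, a receptor gene of the muscle side of the synapse, at -0.81. Of 4 other sensory channel genes (16 listed) 3 were called negative and 0 positive, centred 2 and 0, beside the same shares of named genes, among them rpk, a relative of ppk, at -0.71 and brv2 at -0.80, and Trpml, at -0.38, was called only before centring.

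General neuronal genes lay nearer 0. Of 8 measured (26 listed), 3 were called negative and 0 positive, below the 44.9% of named genes called negative, with a median of 0.04. Centred, 1 was negative and 5 positive, against 27.1% and 28.9% of named genes. Gad1, for the enzyme that makes the transmitter GABA, stood at -0.61, the potassium channel gene Sh at -0.49 and the dynamin gene shi at -0.38. The other 5, nSyb, Csp, Rbp9, Appl and Shab, named after their values were seen, had positive means of up to 0.16 that were not called, and were the 5 called positive after centring. The median of this list lay between -0.31 and -0.02 on the Rover arrays and between -0.09 and 0.11 on the sitter arrays, above that of the chemosensory genes on all 8.

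Genes of other larval tissues varied from array to array. The median of 6 measured fat body genes (10 listed) ran from -0.27 to 0.44 on the Rover arrays and from -0.62 to -0.22 on the sitter arrays; 1 was called negative over both, Mtp (lipid loading of lipoproteins) at -0.34, and 0 positive, centred 0 and 0. The lipoprotein gene apolpp at -0.20 and the storage protein receptor gene Fbp1 at -0.45 were not called. For 4 salivary gland genes (11 listed) the array medians were -1.24 to -0.18 in Rover, and -0.23 to -0.03 in sitter. Over both, 2 were called negative, Sgs4 at -1.13 and ng2 at -0.56, 0 positive, centred 0 and 0, and ng3 at -0.30 was not called. The remaining gene, Eig71Ee, named after its values were seen, averaged 1.94 in Rover and -1.48 in sitter, and its mean of 0.23 over both was not called. Of all named genes, 44.9% were called negative over both, and 27.1% after centring. The part of tissue composition in the ratios of the chemosensory genes was not tested.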

How the data were processed

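Total RNA of larvae was directly labelled (80 µg a reaction). Per the labels, slides were scanned on a ScanArray 4000, quantified with QuantArray version 3 without background subtraction, and the deposited values are ratios that the authors derived from normalised data. The values were taken as deposited log2 ratios; the sources used here do not give normalisation, log base, dyes or numerator. The table held 27648 spots on 8 arrays with 0 missing values. Spots with 1 gene symbol (15116) were averaged per gene and array, the 102 with several symbols and 12430 unlisted ones were kept singly, giving 19325 features.

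limma 3.58.1 in R 4.3.3 fitted 1 mean for each background to the 8 arrays together, leaving 6 residual degrees of freedom. A gene was called at a Benjamini-Hochberg adjusted p under 0.05, adjusted across all 19325 features. The fit was tested on simulated data. Members and lists were chosen with earlier results of these data known. Values on every array are given for the 8 members most negative over both backgrounds among those called and negative on all 8 arrays, and for members called positive, of smallest p in the difference, or extreme in their subfamily; for lists, up to 3 genes of smallest p. Obp84a and Ir47a were added after their values were seen. Other members are given by their means. Alternatives were centring, scaling, moderation, weights, blocks, spots, thresholds and left-out arrays. Signal over background was not used here, so dim spots could not be set apart, and the number of arrays limits precision.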

Additional observations from a re-analysis of the deposited data

Results flagged for a closer look

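In 36 groups of 4 arrays (18 named genes in each background), 2 held an array far from the others, where chance flags about 1 in 20. Obp83cd stood at -0.47 on Rover 1, against -1.13 to -1.20 on the other Rover arrays. Rover 1 is of print lot A and was scanned at a Cy5 gain of 67. Obp56d stood at -1.23 on sitter 3, against -0.26 to -0.39 on the other sitter arrays, and all 6 of its spots were at -0.87 or below there.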

How the results depend on the processing

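The median ratio of each subfamily moved by less than the SD of its array medians, pooled within backgrounds, under centring, scaling, means, single spots, print lot B only, a Cy5 gain of 64 only and each left-out array. That SD describes single arrays, so leaving out 1 array could hardly move a median that far. For left-out arrays the outcome was thus largely fixed in advance and is no sign of robustness. Centring raised every median, to -0.60 for the binding proteins, -0.60 for the ionotropic receptors and -0.41 for the pickpocket genes. Or33a moved to -0.57 and CheA75a to 0.37, and Gr61a changed sign to 0.18. Counts of called members fell by a factor of 1.5 for Rover after centring, to 14 (23.4% of all features negative). The same held for sitter fitted by itself, with 10 members (13.2% of all features negative). Other counts stayed within 1.5 times except in these cases. Against a 1.5-fold threshold limma called 0 members over both backgrounds, 0 in Rover and 0 in sitter (15, 13 and 4 at an unadjusted p under 0.05), as its construction requires larger ratios. Of all features 0.0466%, 0.15% and 0.0155% were called negative against that threshold. The Rover count was 9 after centring and scaling (16% of all features negative). The sitter count was 4 from single spots (Ir93a, Obp19b, Obp47a and Obp56e), where every spot of a member had to pass with the same sign. Taken one by one, 18.8% of all spots were called negative there. That share follows a looser rule than the count of members, so they cannot be compared. Leaving out each array gave 20 to 22 members over both, 18 to 21 in Rover, 1 to 16 in sitter and 0 in the difference. Of all features, those fits called negative 42.3% to 47.5% over both, 35.3% to 44.9% in Rover and 0.0776% to 25.2% in sitter. Sign changes concerned genes near 0. Centring gave 0.011 for Obp56d, 0.043 for Obp99c, 0.18 for Gr61a and 0.049 for Ir76a, and centring with scaling gave 0.073 for Obp99c, 0.23 for Gr61a and 0.053 for Ir76a. Obp8a was at -0.056 with print lot B only, -0.072 with a gain of 64 only and from -0.012 (without Rover replicate 1) to 0.148 with each array left out. CheA75a ran from -0.067 (without Rover replicate 2) to 0.146 and was at -0.015 without sitter replicate 2. With replicate number as a block limma called 23 members over both, 21 in Rover, 18 in sitter and 0 in the difference, beside 47.3%, 46.2% and 29.6% of all features called negative, with Obp56d and Obp99c passing over both (adjusted p = 0.0382 and 0.0273). Deviations of same-numbered arrays correlated at 0.31, 0.12, 0.06 and 0.06, and 2 of the 4 Rover arrays correlated best with their own number. The replicate 1 arrays, with the correlation of 0.31, also shared print lot A and a hybridisation of 15.75 hours. The main fit did not pair arrays by number. Signal over background was not used here.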

Other observations

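Spots listed under several symbols were kept out of the counts above. The spots named for Obp56c or Obp56b averaged -1.46 ± 0.43 in Rover and -1.16 ± 0.10 in sitter (SD, n = 4 each), and ran from -2.03 to -1.03 over the 8 arrays. Those named for Obp57e or CG30148 averaged -0.95 ± 0.39 in Rover and -0.74 ± 0.57 in sitter, and those for Gr36b or Gr36c -0.93 ± 0.29 and -0.52 ± 0.40 (SD, n = 4 each). The spots for CheB38a, CheB38b or CG33322 averaged -0.62 ± 0.21 in Rover and -0.25 ± 0.20 in sitter (SD, n = 4 each). All 4 sets were negative on all 8 arrays.

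Across the 8 arrays, pairs of chemosensory genes had a median Pearson r of 0.37, against 0.17 for pairs of all named genes. After centring and scaling these were 0.13 and 0.03. The pairs share arrays, print and scan settings, and the values are descriptions.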
